A study of Mus musculus with 6 samples.

Results

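The glucocorticoid-responsive genes described here were 9 of the 21878 genes in the count table, namely the glucocorticoid receptor gene *Nr3c1* and its known target genes *Fkbp5*, *Tsc22d3*, *Sgk1*, *Klf9*, *Zbtb16*, *Hif3a*, *Mt1* and *Mt2*. They were listed by name as the receptor and well-known targets, with earlier results of these data known. All 9 had enough counts to be tested. Whole thyroid glands of 12-week-old female mice gave 6 RNA libraries, 3 of them titled control with the genotype WT and 3 titled treatment with the genotype TET1 KO. They are called Thy-Tet1+/+ and Thy-Tet1-/- here, after the study's names for these mice. The Thy-Tet1-/- mice carry a thyroid-specific deletion of floxed *Tet1*, made in follicular epithelial cells, and the Thy-Tet1+/+ mice were their wild-type littermates. The treatment named in the labels is the knockout itself, and no drug or hormone is given there. Because the deletion is limited to follicular cells while the whole gland was sequenced, all other cells in the gland keep an intact *Tet1*. The hour at which the glands were taken is not given in the sources used here.

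Glucocorticoids such as corticosterone, the main glucocorticoid of mice, are released from the adrenal cortex in a daily rhythm and under stress. They enter cells and bind the glucocorticoid receptor, which is held in the cytoplasm by heat shock protein chaperones. The receptor then moves to the nucleus, binds DNA at paired hexamers, and raises or lowers transcription of nearby genes. Many of its targets, including *Fkbp5*, *Tsc22d3* and *Klf9*, rise in most tissues that are exposed to the hormone, and some of them also follow the circadian clock.

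Total counts ranged from 8867683 in Thy-Tet1+/+ replicate 1 to 19950898 in Thy-Tet1+/+ replicate 2. Levels are given as CPM, counts scaled to library size after correction by the trimmed mean of M values (TMM), and 3 counts were worth between 0.152 and 0.356 CPM. *Tet1* itself had 48, 71 and 62 counts in the WT libraries and 172, 162 and 241 in the TET1 KO libraries, a log2 fold change of 1.28 ± 0.27 (SE) with an adjusted p of 0.101 in edgeR. This is opposite to the label, and counts over the whole gene cannot separate a transcript that lacks the floxed exons from an intact one. The group names therefore stand for the labels. All of 10 follicular cell markers were detected in every library, and 1 rose (*Nkx2-1*) and 2 fell (*Dio1* and *Iyd*), named after their values were seen, by the limits given below. Their sum was almost all *Tg*, the thyroglobulin gene, at 252697 to 313667 CPM in Thy-Tet1+/+ and 190892 to 236526 CPM in Thy-Tet1-/-. Skeletal muscle and parathyroid genes differed widely between libraries of the same group and are given beside the results.

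Promoter windows are shown first, because the regulation of these genes runs through short DNA motifs. RefSeq windows of 300 bases on GRCm38.p6 held 250 bases before and 50 after a transcription start. They were searched for 7 of the 9 genes, in 14 windows, without *Nr3c1* and *Zbtb16*. Both strands were searched for the hexamer AGAACA of the glucocorticoid response element, for a pair of inverted hexamers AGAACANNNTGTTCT, and for the core of the metal response element, through which zinc and other metals act on metallothionein genes. That core was searched as TGCNCNC and, as a choice made after the data were seen, in its stricter form with A or G at the fourth base (TGCACNC or TGCGCNC), whose matches are a subset of the first. The single hexamer was found in 19.0% of all 32851 windows in the table, the looser metal core in 51.0%, the stricter one in 25.7% and the inverted pair in 3 windows (0.00913%). The windows of *Sgk1* and *Tsc22d3* with the most hexamers are printed, with several and 1, beside that of *Klf9* with 0. Those of *Mt2* and *Mt1* are printed for their metal cores. They lie at chr10:21993640-21993939 (plus strand) for *Sgk1*, chrX:140600473-140600772 (minus strand) for *Tsc22d3*, chr19:23140976-23141275 (plus strand) for *Klf9*, chr8:94172368-94172667 (plus strand) for *Mt2* and chr8:94178839-94179138 (plus strand) for *Mt1*. Each is read from 5′ to 3′ on the strand of the gene, and capitals mark hexamers in *Sgk1* and *Tsc22d3* and stricter metal cores in *Mt2* and *Mt1*.
Sgk1: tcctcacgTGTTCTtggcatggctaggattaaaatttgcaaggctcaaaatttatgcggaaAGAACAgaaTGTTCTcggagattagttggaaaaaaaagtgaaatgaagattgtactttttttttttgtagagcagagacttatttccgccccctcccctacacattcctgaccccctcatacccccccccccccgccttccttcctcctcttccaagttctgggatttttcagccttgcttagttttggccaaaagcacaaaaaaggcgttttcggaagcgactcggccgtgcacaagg
Tsc22d3: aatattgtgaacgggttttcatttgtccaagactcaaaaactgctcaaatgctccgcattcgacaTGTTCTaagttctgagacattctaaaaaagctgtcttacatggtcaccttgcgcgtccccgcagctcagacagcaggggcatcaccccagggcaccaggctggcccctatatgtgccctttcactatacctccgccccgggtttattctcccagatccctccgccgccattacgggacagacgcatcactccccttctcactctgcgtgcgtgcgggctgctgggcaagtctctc
Klf9: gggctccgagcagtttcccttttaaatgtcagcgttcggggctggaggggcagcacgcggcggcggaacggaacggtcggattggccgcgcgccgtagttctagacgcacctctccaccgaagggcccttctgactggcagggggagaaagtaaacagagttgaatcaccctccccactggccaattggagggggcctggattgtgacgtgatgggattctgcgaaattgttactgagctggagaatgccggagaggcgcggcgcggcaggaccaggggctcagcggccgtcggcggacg
Mt2: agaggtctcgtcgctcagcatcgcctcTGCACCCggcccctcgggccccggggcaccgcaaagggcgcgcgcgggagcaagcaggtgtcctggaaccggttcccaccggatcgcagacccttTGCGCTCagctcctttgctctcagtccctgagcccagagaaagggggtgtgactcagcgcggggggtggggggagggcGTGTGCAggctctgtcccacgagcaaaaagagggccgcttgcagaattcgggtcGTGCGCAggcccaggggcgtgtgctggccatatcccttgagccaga
Mt1: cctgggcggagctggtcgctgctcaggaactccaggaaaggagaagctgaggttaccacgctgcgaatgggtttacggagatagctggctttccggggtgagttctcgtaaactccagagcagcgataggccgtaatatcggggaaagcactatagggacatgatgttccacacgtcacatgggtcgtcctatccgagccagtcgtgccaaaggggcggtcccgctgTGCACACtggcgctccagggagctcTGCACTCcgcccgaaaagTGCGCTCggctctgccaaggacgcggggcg

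This *Sgk1* window held 3 hexamers. A pair of them formed the inverted pair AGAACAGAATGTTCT, which starts at base -189 from the start site, so these hexamer matches overlap the pair. *Sgk1* was the only one of the 7 genes with an inverted pair in these windows, and it has 6 windows because 6 start sites are annotated. The *Tsc22d3* window held 1 hexamer on the opposite strand, at base -185, and the *Klf9* window held no match. Other start sites of *Sgk1* and *Tsc22d3* have windows without a hexamer, so these counts depend on the start site. *Mt2* had 4 stricter metal cores in its window and *Mt1* had 3, against a mean of 0.355 over all windows, and in the looser form they had 6 and 3, against 0.817. Over the 14 windows, 4 held a hexamer, 4 a stricter and 7 a looser metal core. A match is a description of letters in the window and not a measured binding site, and response elements farther from the start were not searched.

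The receptor gene *Nr3c1* (NCBI gene 14815) differed between the groups by less than the spread between libraries. It was measured at 158, 144 and 114 CPM in Thy-Tet1+/+ and at 138, 151 and 152 CPM in Thy-Tet1-/-. The groups overlapped, and the lowest value was that of Thy-Tet1+/+ replicate 3. The means were 138 ± 22.5 CPM (SD, n = 3) and 147 ± 8.06 CPM (SD, n = 3), with a log2 fold change of Thy-Tet1-/- against Thy-Tet1+/+ of 0.090 (95% interval -0.26 to 0.43) and an adjusted p of 0.786 in edgeR. The two-sided exact permutation test gave p = 0.70, where 3 against 3 libraries cannot go below 0.10.

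**Figure D1:**
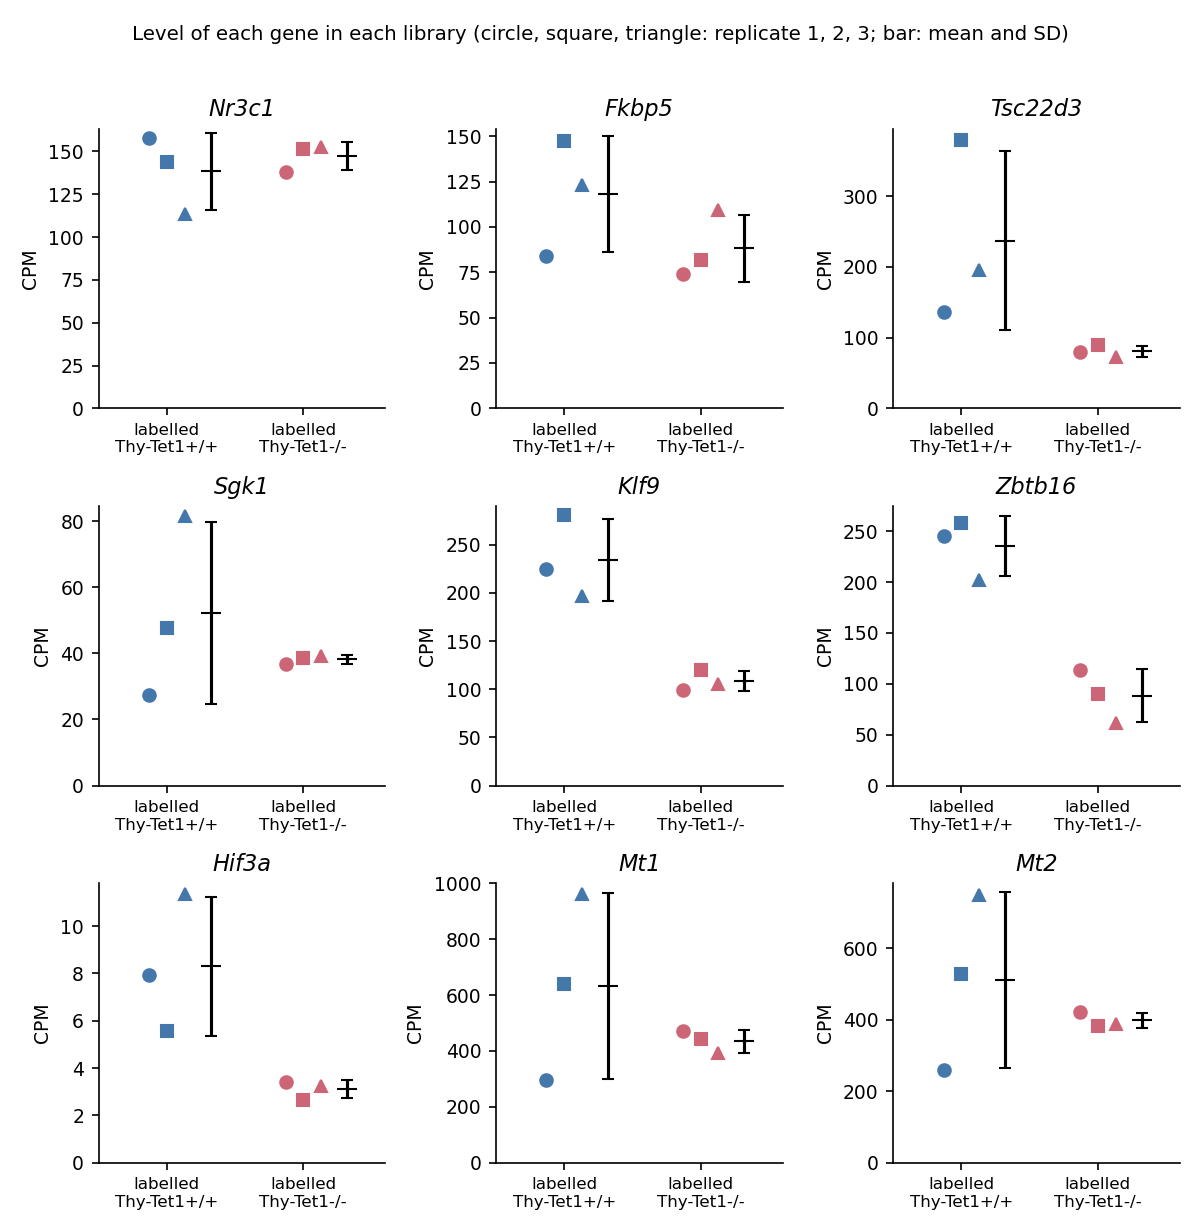
Level of each of the 9 genes in each library in TMM-scaled CPM on linear axes that start at 0, with circles, squares and triangles for replicates 1, 2 and 3 and bars for the mean and SD of each labelled group. For *Tsc22d3*, *Klf9*, *Zbtb16* and *Hif3a* all 3 Thy-Tet1-/- libraries lie below all 3 Thy-Tet1+/+ libraries, while the groups overlap for the other 5 genes.

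Genes that act on the supply of the hormone or hold the receptor were read from the same fit. In what follows a gene is said to have risen or fallen when it passed the limits used in the study, an absolute log2 fold change above 0.585 (1.5-fold) and an unadjusted p under 0.05. Of 5 steroid supply and receptor genes, *Nr3c1* among them, 4 were tested and 1 fell. That gene was *Nr3c2*, which encodes the mineralocorticoid receptor, a related receptor that also binds corticosterone. Its level was 24.4, 24.2 and 16.3 CPM in Thy-Tet1+/+ and 11.1, 13.9 and 12.9 CPM in Thy-Tet1-/-, so that the groups did not overlap, with a log2 fold change of -0.78 ± 0.20 (SE) and an adjusted p of 0.128 in edgeR. Of 8 chaperone genes of the receptor complex 2 fell and 6 did not pass the limits, with a median log2 fold change of -0.43. *Hsp90aa1*, which encodes the inducible HSP90, fell by 0.72 on the log2 scale, from 443 ± 102 to 269 ± 13.3 CPM (SD, n = 3 each). *Ptges3*, which encodes the HSP90 cochaperone p23, fell by 0.65 on the log2 scale. None of 9 coregulator genes passed the limits, and their median log2 fold change was -0.16.

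*Fkbp5* (NCBI gene 14229) encodes an HSP90 cochaperone that lowers the affinity of the receptor for the hormone and is induced by it, which closes a negative feedback loop. Its level was 84.0, 147 and 123 CPM in Thy-Tet1+/+ and 73.9, 81.6 and 109 CPM in Thy-Tet1-/-. The groups overlapped, since Thy-Tet1+/+ replicate 1 was close to the lowest Thy-Tet1-/- libraries. The means were 118 ± 31.9 and 88.2 ± 18.5 CPM (SD, n = 3 each), with a log2 fold change of -0.42 (95% interval -0.99 to 0.15) and an adjusted p of 0.390 in edgeR. The tested genes whose log2 CPM followed *Fkbp5* most closely over the 6 libraries were *Pou2f2*, *Triobp* and *Il1rn*, with Pearson r of 0.994, 0.986 and 0.981, given as a description without a test. *Pou2f2* and *Il1rn* were read from only 6 to 71 counts per library, and *Triobp* stayed between 49.7 and 57.8 CPM.

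*Tsc22d3*, *Klf9*, *Zbtb16* and *Hif3a* were lower in every Thy-Tet1-/- library than in any Thy-Tet1+/+ library. *Tsc22d3* (NCBI gene 14605) encodes GILZ, a leucine zipper protein that carries part of the anti-inflammatory action of glucocorticoids. It was at 136, 380 and 195 CPM in Thy-Tet1+/+ and at 79.2, 89.5 and 73.0 CPM in Thy-Tet1-/-. Thy-Tet1+/+ replicate 2 stood highest by far, while the Thy-Tet1-/- libraries lay close together. The means were 237 ± 127 and 80.5 ± 8.33 CPM (SD, n = 3 each), a ratio of 2.95, and the log2 fold change was -1.56 ± 0.36 (SE), with an unadjusted p of 0.0039 and an adjusted p of 0.112 in edgeR. Without the highest library the log2 fold change was -1.04.

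*Klf9* (NCBI gene 16601) encodes a zinc finger transcription factor that is induced by glucocorticoids and by thyroid hormone. Its level was 225, 281 and 197 CPM in Thy-Tet1+/+ and 99.6, 120 and 106 CPM in Thy-Tet1-/-. Among the 9 genes it had the smallest standard error relative to its change, with means of 234 ± 42.6 and 108 ± 10.3 CPM (SD, n = 3 each). The log2 fold change was -1.11 ± 0.16 (SE), with an unadjusted p of 2.78e-04 and an adjusted p of 0.0730 in edgeR. *Zbtb16* (NCBI gene 235320) encodes PLZF, a transcriptional repressor. It was at 245, 258 and 202 CPM in Thy-Tet1+/+ and at 114, 89.6 and 61.3 CPM in Thy-Tet1-/-. It was the only one of the 9 genes whose values were relatively more spread in Thy-Tet1-/- (coefficient of variation 29.7%) than in Thy-Tet1+/+ (12.4%). The log2 fold change was -1.42 ± 0.24 (SE), with an unadjusted p of 6.13e-04 and an adjusted p of 0.0805 in edgeR.

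*Hif3a* (NCBI gene 53417) encodes an alpha subunit of the hypoxia-inducible factors, of which some isoforms restrain the others. It was the lowest of the 9 genes, with 67, 104 and 205 counts in Thy-Tet1+/+ and 63, 45 and 64 in Thy-Tet1-/-. Scaled to depth this was 7.95, 5.56 and 11.4 CPM against 3.43, 2.67 and 3.25 CPM. The groups were apart, with Thy-Tet1+/+ replicate 2 the nearest to the Thy-Tet1-/- libraries. The log2 fold change was -1.41 ± 0.33 (SE), with an unadjusted p of 0.0038 and an adjusted p of 0.112 in edgeR. For each of these 4 genes the two-sided exact permutation test gave p = 0.10, the smallest that 3 against 3 libraries allow.

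*Sgk1*, *Mt1* and *Mt2* showed a different pattern, in which the Thy-Tet1+/+ libraries lay on both sides of a narrow Thy-Tet1-/- group. *Sgk1* (NCBI gene 20393) encodes a serum- and glucocorticoid-regulated kinase that acts on ion channels and transporters. It was at 27.3, 47.6 and 81.7 CPM in Thy-Tet1+/+ and at 36.7, 38.7 and 39.2 CPM in Thy-Tet1-/-. The lowest and the highest of the 6 libraries were both Thy-Tet1+/+, replicates 1 and 3. The means were 52.2 ± 27.5 and 38.2 ± 1.32 CPM (SD, n = 3 each), the log2 fold change was -0.45 (95% interval -1.30 to 0.39), and the adjusted p was 0.538 in edgeR.

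*Mt1* and *Mt2* encode the widely expressed metallothioneins, small cysteine-rich proteins that bind zinc and copper and are induced by metals as well as by glucocorticoids. *Mt1* (NCBI gene 17748) was at 297, 640 and 963 CPM in Thy-Tet1+/+ and at 473, 441 and 392 CPM in Thy-Tet1-/-. *Mt2* (NCBI gene 17750) was at 259, 527 and 749 CPM in Thy-Tet1+/+ and at 423, 383 and 388 CPM in Thy-Tet1-/-. Both genes shared the library order of *Sgk1* within Thy-Tet1+/+, with replicate 1 below and replicate 3 above every Thy-Tet1-/- library. The log2 fold change was -0.54 for *Mt1* (95% interval -1.46 to 0.38, adjusted p = 0.494 in edgeR) and -0.36 for *Mt2* (95% interval -1.20 to 0.47, adjusted p = 0.626 in edgeR). The longest run of bases that transcripts of *Mt1* and *Mt2* have in common was 20 bases. The exons of *Mt2* overlap 432 bases of *Gm45774*, an antisense gene without counts of its own here, and since strand use in the counting is not stated, reads from the 2 cannot be told apart. Of 7 other genes of metal response 6 were tested and 1 fell, the zinc importer gene *Slc39a14*, with a log2 fold change of -0.63 ± 0.16 (SE), and the median was -0.068.

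**Figure D2:**
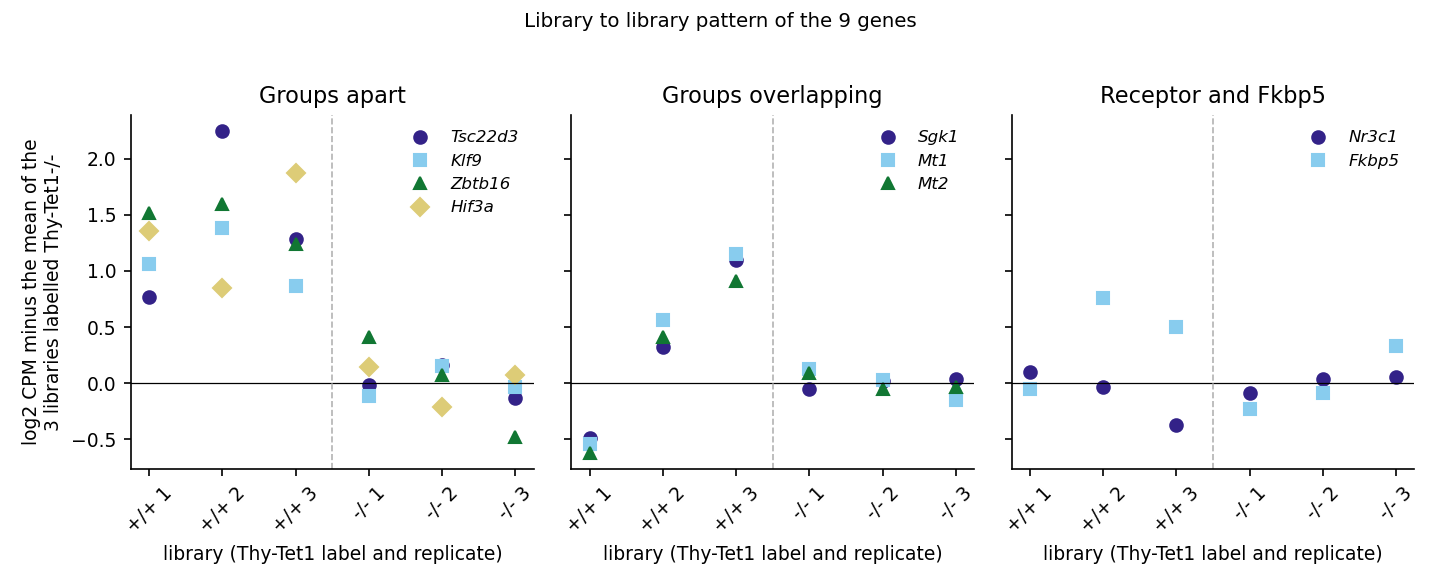
Log2 CPM of each gene in each library minus its mean over the 3 libraries labelled Thy-Tet1-/-, with the 3 Thy-Tet1+/+ libraries left of the dashed line and 1 marker shape per gene. *Tsc22d3*, *Klf9*, *Zbtb16* and *Hif3a* lie above 0.5 in every Thy-Tet1+/+ library, whereas *Sgk1*, *Mt1* and *Mt2* lie below 0 in replicate 1 and above it in replicates 2 and 3.

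Levels can be compared between genes only per length, here as CPM per kilobase of annotated exon. On this scale *Mt2* and *Mt1* led in Thy-Tet1+/+ at 870 and 508, followed by *Tsc22d3* at 54.6, *Klf9* at 48.7 and *Zbtb16* at 44.5, which differed from each other by less than their spread. *Nr3c1*, *Fkbp5* at 12.5 and *Sgk1* at 10.6 followed in this order, the last 2 within their spread, and *Hif3a* was lowest at 1.24. In Thy-Tet1-/- *Mt2* and *Mt1* again led at 677 and 349, and *Hif3a* was again lowest at 0.464. *Tsc22d3* at 18.6 and *Zbtb16* at 16.7 then stood beside *Nr3c1* at 19.1, and all 3 lay within their spread, below *Klf9* at 22.5. *Fkbp5* at 9.32 and *Sgk1* at 7.79 kept their places.

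Counted together, 4 of the 9 genes fell and 0 rose, where 3.66% of the 14143 tested genes fell and 5.54% rose. The median log2 fold change of the 9 genes was -0.54, beside 0.00063 for all tested genes, and 8 of the 9 estimates were below 0. For 4 genes all Thy-Tet1-/- libraries lay below all Thy-Tet1+/+ libraries, a separation seen in 14.3% of tested genes. With an adjusted p under 0.05 edgeR called 0 of the 9 genes and 0.113% of all tested genes. At the same limit limma-voom called 0 of the 9 genes and 13 of all tested genes. An unadjusted p under 0.05 was found for 4 of the 9 with either tool. Among all 14143 tested genes it was found for 2676 in edgeR and 2718 in limma-voom. DESeq2 gave an adjusted p under 0.05 for 4 of the 9, with 4.86% of its genes called lower. These were again *Tsc22d3* (4.78e-04), *Klf9* (1.69e-07), *Zbtb16* (2.10e-06) and *Hif3a* (0.0063). Over all 14 alternatives the highest adjusted p of these genes was 0.348, 0.312, 0.310 and 0.362.

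**Figure D3:**
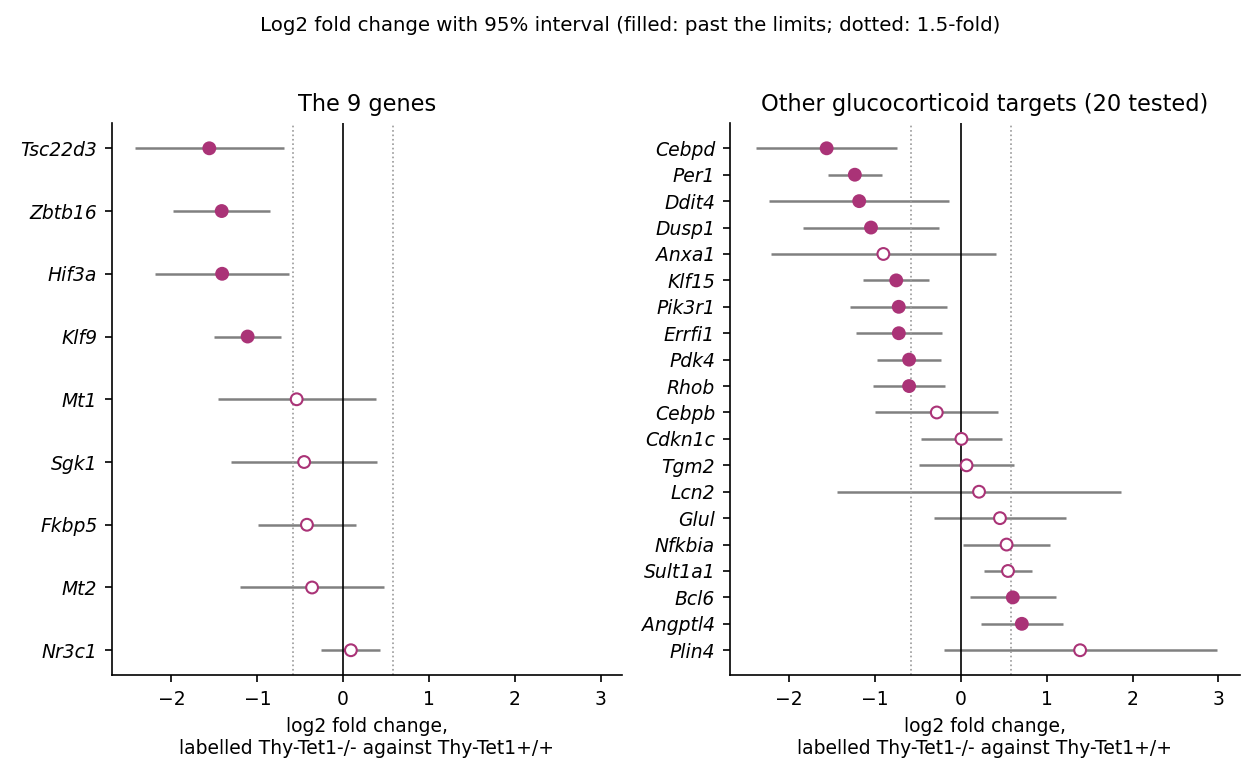
Log2 fold change of Thy-Tet1-/- against Thy-Tet1+/+ in edgeR with its 95% interval for the 9 genes (left) and for 20 tested genes of a further list of glucocorticoid targets (right), filled where a gene passed the limits, with dotted lines at 1.5-fold. On the left 4 genes lie past the lower line with intervals below 0, and on the right 9 filled points lie below 0 and 2 above.

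The count depended on Thy-Tet1+/+ replicate 1, the shallowest library. Without it 8 of the 9 genes fell, beside 4.03% of all tested genes, and their median log2 fold change was -0.88. The added genes were *Fkbp5* at -0.62, *Sgk1* at -0.76, *Mt1* at -0.88 and *Mt2* at -0.68 on the log2 scale, and adjusted p-values of the 8 genes in edgeR lay between 0.0916 and 0.176. *Nr3c1* did not pass the limits there, at 0.19. Without Thy-Tet1+/+ replicate 3 instead, *Sgk1* was at 0.023, *Mt2* at 0.018, *Mt1* at -0.11 and *Nr3c1* at -0.034 on the log2 scale. *Tsc22d3*, *Klf9*, *Zbtb16* and *Hif3a* passed the limits in every one of the 14 alternative analyses, with log2 fold changes of -1.84 to -1.04, -1.22 to -0.66, -1.66 to -0.96 and -1.63 to -0.98. For *Klf9*, *Zbtb16* and *Hif3a* the smallest of these changes came from scaling the libraries to 10 epithelial genes, which moved the median of all tested genes to 0.45 and that of the 9 genes to -0.074. The 10 epithelial genes themselves summed to 2595 to 3203 CPM in Thy-Tet1+/+ and 1956 to 2048 CPM in Thy-Tet1-/-. On that scaling *Tsc22d1* (-0.32), *Dusp1* (-0.55) and *Ddit4* (-0.68), which are described below, no longer passed the limits. The changes of *Nr3c2* (-0.33), *Hsp90aa1* (-0.30), *Ptges3* (-0.24) and *Slc39a14* (-0.17) did not pass them there either. Some of these calls were also lost elsewhere, *Ptges3* without Thy-Tet1+/+ replicate 1 (-0.42) and with the muscle covariate (-0.47), *Hsp90aa1* without Thy-Tet1+/+ replicate 1 (-0.58), and *Slc39a14* without any 1 of 3 libraries, namely Thy-Tet1+/+ replicates 2 and 3 and Thy-Tet1-/- replicate 3 (-0.58 to -0.55).

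**Figure D4:**
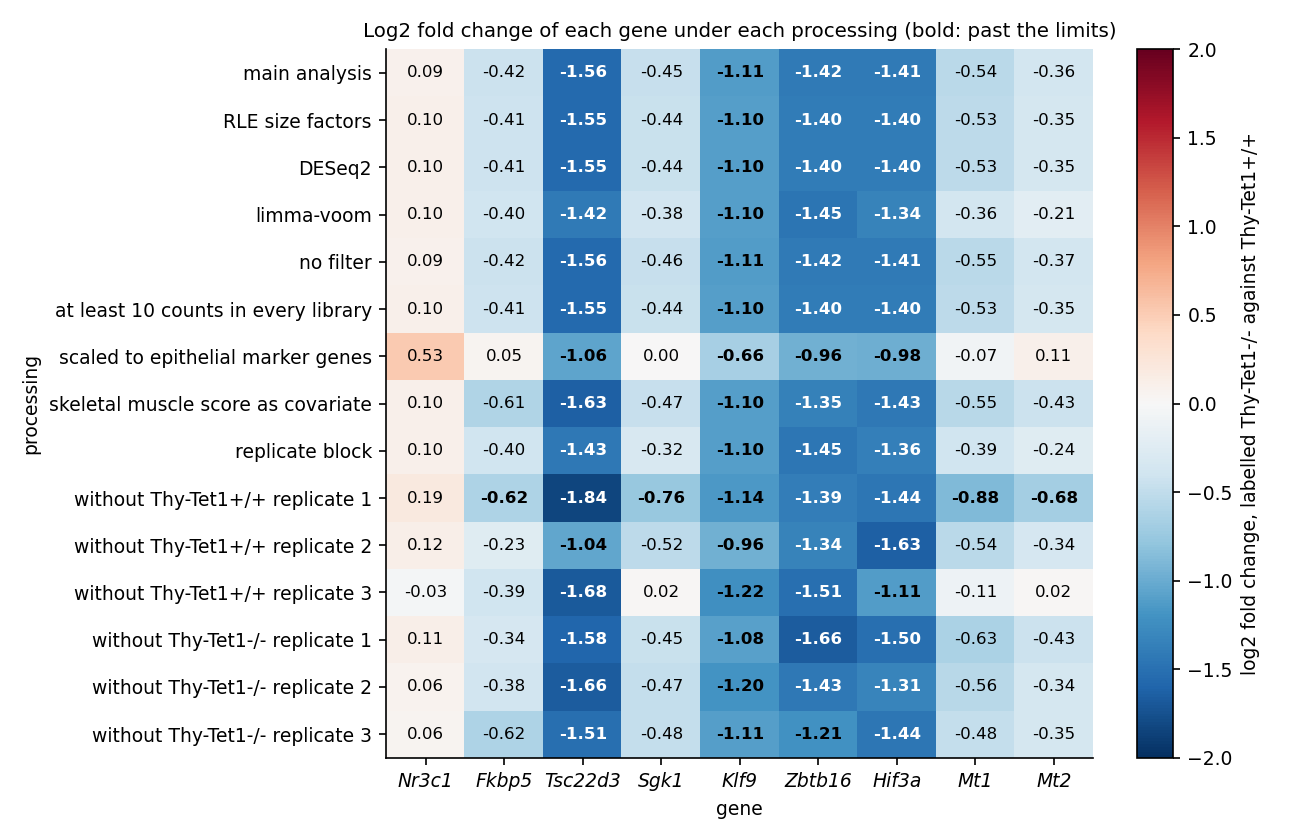
Log2 fold change of Thy-Tet1-/- against Thy-Tet1+/+ for the 9 genes (columns) under the analysis as reported and 14 alternatives (lines from top to bottom), coloured from blue (lower) to red (higher), with bold figures where the limits were passed. *Tsc22d3*, *Klf9*, *Zbtb16* and *Hif3a* are bold throughout, and *Fkbp5*, *Sgk1*, *Mt1* and *Mt2* are bold only without Thy-Tet1+/+ replicate 1.

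The spread between libraries also differed by group. The coefficient of variation was larger in Thy-Tet1+/+ for 8 of the 9 genes, and for 64.8% of all tested genes. It was 53.6% against 10.3% for *Tsc22d3*, 52.7% against 3.46% for *Sgk1*, 52.6% against 9.40% for *Mt1* and 48.0% against 5.48% for *Mt2*, each given as Thy-Tet1+/+ against Thy-Tet1-/-. *Nr3c1* varied by 16.2% and 5.47%. With 3 libraries per group such values are coarse and were not tested.

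A further list of 21 glucocorticoid targets was read beside the 9 genes. Of these 20 were tested, 9 fell, 2 rose and 9 did not pass the limits, and the median log2 fold change was -0.44. *Per1*, a clock gene with a glucocorticoid response element, was at 104, 110 and 119 CPM in Thy-Tet1+/+ and at 50.5, 50.8 and 39.8 CPM in Thy-Tet1-/-. The 2 groups were far apart for their spread, and with a log2 fold change of -1.24 ± 0.13 (SE) and an adjusted p of 0.0466 in edgeR it was the 1 gene of this list with an adjusted p under 0.05. *Per1* passed the limits in all 14 alternatives. Its adjusted p in edgeR was between 0.0727 and 0.310 with any 1 library left out, 0.226 with the muscle covariate and 0.242 with the replicate block. *Cebpd*, which encodes a transcription factor of the C/EBP family, was at 14.7, 36.4 and 21.6 CPM against 8.23, 9.78 and 6.71 CPM, with a log2 fold change of -1.56 ± 0.35 (SE). It resembled *Tsc22d3* in that Thy-Tet1+/+ replicate 2 was highest and the groups were apart.

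*Ddit4*, which encodes the mTORC1 inhibitor REDD1, had a log2 fold change of -1.18 ± 0.44 (SE), and its Thy-Tet1+/+ replicate 1 (26.5 CPM) lay within the Thy-Tet1-/- range of 22.3 to 33.1 CPM. It no longer passed the limits in 8 of the 14 alternatives. *Dusp1*, which encodes a MAP kinase phosphatase, fell from 46.4 ± 23.4 to 22.5 ± 2.27 CPM (SD, n = 3 each), and passed the limits in 11 of the 14 alternatives. Thy-Tet1+/+ replicate 2 was highest for it, at 73.2 CPM against 30.6 and 35.3 CPM in the other Thy-Tet1+/+ libraries, and without that library its log2 fold change went from -1.05 to -0.55 and no longer passed the limits. The 2 that rose, named after their values were seen, were *Angptl4*, an inhibitor of lipoprotein lipase, with a log2 fold change of 0.71 ± 0.20 (SE), and *Bcl6*, a transcriptional repressor, with 0.61 ± 0.21 (SE). Their adjusted p in edgeR was 0.145 for *Angptl4* and 0.201 for *Bcl6*, and these 2 genes were not followed over the 14 alternatives. By the limits, which use the unadjusted p, the further list held targets that moved in both directions.

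Relatives of the 9 genes did not all move alike. Of 12 such genes, which include *Nr3c2* above, 10 were tested and 2 fell, with a median log2 fold change of -0.20. Besides *Nr3c2* this was *Tsc22d1*, a family member of *Tsc22d3*, at 476, 653 and 506 CPM in Thy-Tet1+/+ and 305, 330 and 321 CPM in Thy-Tet1-/-. Its log2 fold change was -0.78 ± 0.15 (SE), with an adjusted p of 0.0965 in edgeR. *Tsc22d1* passed the limits in 13 of the 14 alternatives, and not on the scaling to epithelial genes (-0.32).

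Circadian genes moved strongly with the same labels. Of 14 clock genes, *Per1* among them, 7 rose and 5 fell. *Dbp*, a clock output transcription factor, was at 36.5, 20.8 and 27.2 CPM in Thy-Tet1+/+ and at 223, 256 and 164 CPM in Thy-Tet1-/-, a log2 fold change of 2.93 ± 0.26 (SE). *Per3* rose by 2.45 and *Ciart* by 2.04 on the log2 scale, and *Npas2*, a partner of the clock activator, had a log2 fold change of -1.47. Glucocorticoid release and several of the 9 genes follow the time of day as well, and the part of the clock genes in the result was not tested. Of 9 immediate early genes, which respond to handling and stress within minutes, 1 rose (*Junb*, log2 fold change 1.10 ± 0.25 (SE)) and 0 fell, with a median of -0.076. Thy-Tet1+/+ replicate 2 stood apart in this list, with a mean log2 CPM of 4.18 against 2.84 to 3.40 in the other 5 libraries. The same library was the highest of the 6 for *Fkbp5*, *Tsc22d3*, *Klf9*, *Zbtb16*, *Cebpd*, *Dusp1* and *Ddit4*, and the part of that library's state in these levels was not tested. Without it the log2 fold changes were -0.23 for *Fkbp5*, -0.96 for *Klf9*, -1.34 for *Zbtb16*, -1.04 for *Tsc22d3* and -0.75 for *Ddit4*.

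Genes of other tissues moved with some of these results. In bulk tissue, fewer cells of a type and less RNA per cell cannot be told apart. The 8 skeletal muscle markers, all detected in every library, summed to 6264, 738 and 3722 CPM in Thy-Tet1+/+ and to 112, 6773 and 39.1 CPM in Thy-Tet1-/-, and 0 of 8 passed the limits. With a muscle score as a covariate the same 4 of the 9 genes fell, beside 481 of the 14143 tested genes.

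The 6 macrophage markers, all detected in every library, summed to 92.3, 334 and 175 CPM in Thy-Tet1+/+ and to 139, 135 and 158 CPM in Thy-Tet1-/-. Their highest library, Thy-Tet1+/+ replicate 2, was also that of *Tsc22d3* and *Cebpd*, and 1 of the 6 fell. The part of macrophages in these values was not tested. The 8 adipocyte markers summed to 199 to 604 CPM in Thy-Tet1+/+ and to 439 to 1771 CPM in Thy-Tet1-/-, and 2 of 8 rose. All 8 had log2 fold changes above 0, with a median of 1.52, and the part of adipocytes in the result was not tested. The 4 parathyroid markers summed to 7949, 192 and 31340 CPM in Thy-Tet1+/+ and to 10625, 21635 and 11884 CPM in Thy-Tet1-/-, and 0 of 4 passed the limits. Their lowest and highest libraries were both Thy-Tet1+/+, replicates 2 and 3, and the highest was also that of *Sgk1*, *Mt1* and *Mt2*. The part of parathyroid tissue in those levels was not tested.

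Endothelial and fibroblast markers were steadier, while T cell and thymocyte markers varied widely between libraries. The 6 endothelial markers summed to 472 to 585 CPM in Thy-Tet1+/+ and 457 to 636 CPM in Thy-Tet1-/-, with 0 past the limits. The 6 fibroblast markers summed to 884 to 1112 CPM and 941 to 1123 CPM, and 1 rose. The 8 T cell and thymocyte markers stayed between 9.06 and 20.5 CPM in 4 libraries, with up to 3 of the 8 at 0, and reached 141 CPM in Thy-Tet1+/+ replicate 1 and 513 CPM in Thy-Tet1-/- replicate 3.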

How the data were processed

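Thyroid RNA from 6 mice was measured by RNA-seq. Per gene, for 21878 genes, the authors deposited unnormalized whole-number counts, and the submitters' processing notes name mm10. The aligner, the counter and their versions are not given in the sources used here. The protocol describes poly(A) selection and a directional kit, in a text that speaks of retinas. The 27 symbols that looked like dates or occurred more than once were looked up from their NCBI gene identifiers. Groups came from the sample labels.

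The analysis used edgeR 4.0.16 under R 4.3.3. Its filterByExpr function left 14143 genes, TMM scaled the libraries, and the quasi-likelihood test compared the groups. Adjustment of p-values was by Benjamini-Hochberg over all tested genes. Single genes were also compared with two-sided exact permutation tests on log2 CPM with a prior count of 2. The p-values measure the spread between these samples, which their titles number within each group without saying more. The biological coefficient of variation was 0.33. Floors of 3 counts cover counting error only, since molecules were not tagged.

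The 9 genes and the further gene lists were chosen with earlier results of these data known. Genes named were the 9, *Tet1*, up to 4 genes past the limits with the largest change from each list that is not a cell type, and the 3 genes most like *Fkbp5*. *Angptl4*, *Bcl6* and 4 follicular cell markers were named after their values were seen. Exon lengths, positions and overlaps came from GENCODE M21, and promoter windows from RefSeq. No window was held for *Zbtb16*, and chromosome 18, where *Nr3c1* lies, was left out of the promoter search of the 9 genes by choice. As alternatives, the filter was dropped or set to 10 counts in every library, RLE size factors replaced TMM, DESeq2 1.42.0 and voom of limma 3.58.1 replaced the test, libraries were scaled to 10 epithelial genes, a muscle score or the replicate number entered the model, and libraries were left out singly. The code was tested on simulated data.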

Additional observations from a re-analysis of the deposited data

How the results depend on the processing

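Over 14 alternatives the 4 genes that fell passed the limits each time. Against 16 genes with an adjusted p under 0.05 in edgeR, DESeq2 called 1192 (4 of the 9 genes), limma-voom 13, a minimum of 10 counts in every library gave 25, the muscle covariate 0 and leaving out 1 library between 0 and 1. Scaling to the epithelial genes gave 3628 genes past the limits instead of 1301 (97.4% higher, against 60.2%), 1833 with an adjusted p under 0.05 (2 of the 9), 6411 genes whose groups do not overlap and a median of -0.074 for the 9 genes. It also turned the log2 fold changes of *Fkbp5* to 0.048, *Sgk1* to 0.0038, *Mt2* to 0.11 and *Triobp* to 0.36. *Nr3c1* was at 0.53 on that scaling, beside a median of 0.45 for all tested genes. Its unadjusted p in edgeR was 0.023 there, and it did not pass the limits. Leaving out 1 library gave 4 to 8 of the 9 genes past the limits, a median of -0.88 to -0.39 for them and 4617 to 5890 genes whose groups do not overlap. It moved the log2 fold change of *Nr3c1* between -0.034 and 0.19, of *Sgk1* between -0.76 and 0.023 and of *Mt2* between -0.68 and 0.018, with the lowest value of *Nr3c1* and the highest of the others without Thy-Tet1+/+ replicate 3, and the opposite ends without replicate 1. The cause of these shifts was not tested. Smaller groups separate more easily, which concerns only the counts of genes whose groups do not overlap.

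Same-numbered libraries did not deviate together (correlations of -0.17, -0.37 and -0.19), so the numbers are not taken as a pairing. In a fit with a replicate block 1145 genes passed the limits, 0 had an adjusted p under 0.05 (1900 with an unadjusted p under 0.05), and the same 4 of the 9 genes fell. Depth limits *Hif3a* most, with 45 to 205 counts.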
